A study of Mus musculus with 11 samples.

Results

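The complement components and receptors followed here are 7 genes, C1qa, C1qb, C1qc, C3, Cfp, C3ar1 and C5ar1, chosen by gene symbol from the 14604 genes with deposited values and described in all 11 RNA-sequencing libraries. The libraries hold RNA of CD4+ GITR+ CD25+ cells, the surface phenotype used to sort regulatory T cells (Tregs), from MC38 tumors and from spleens of mice bearing these tumors. MC38 is a mouse colon adenocarcinoma line that was grown as a graft. Control mice (WT) carried CD177flox/flox, a Cd177 gene that Cre can delete, with no Cre in the label, and knockout mice (KO) carried CD177flox/flox/FOXP3-CreYFP, in which the Foxp3 promoter drives Cre in Tregs, so that the deletion and the Cre-YFP allele cannot be told apart. There were 3 spleen libraries from WT mice, 3 spleen libraries from KO mice, 3 tumor libraries from WT mice and 2 tumor libraries from KO mice. All of these mice, WT and KO alike, had been implanted with MC38 cells. Age and the number of mice behind a library are not in the labels, and Cd177 itself was not analysed here, so the genotype labels were not checked against it. Nothing in the labels ties a library to its own mouse, and p-values therefore measure the spread between these libraries, which may be technical.

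Complement is a cascade of plasma and tissue proteins that marks cells and debris for removal and recruits phagocytes. The classical pathway starts with C1q, a hexamer built from the chains encoded by C1qa, C1qb and C1qc, the lectin pathway starts with sugar-binding proteins, and the alternative pathway is sustained by properdin, the product of Cfp. All of them meet at C3, and fragments of C3 and C5 act on receptors such as those encoded by C3ar1 and C5ar1. The liver makes much of the plasma complement, whereas C1q and properdin come mainly from myeloid cells, and macrophages are a known tissue source of C1q and carry both anaphylatoxin receptors. T cells are not known as a major source of C1q.

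On the mouse build GRCm38 with GENCODE M21 annotation, all 7 genes lie on the minus strand and none of their exons overlaps an exon of another gene. The C1q genes form a cluster of 18.7 kb on chromosome 4, with C1qb at chr4:136880129-136886187, C1qc at chr4:136889804-136893065 and C1qa at chr4:136895917-136898803. C3 lies at chr17:57203970-57228136, C3ar1 at chr6:122847138-122856161, C5ar1 at chr7:16246743-16259540 and Cfp at chrX:20925454-20931555. The C1q genes moved together in the data described next, and sequence before the RefSeq start of 2 of them and of C3 is shown here for that reason, 5′ to 3′ on the strand of the gene. RefSeq sequence on GRCm38.p6 covered 6 of the 7 genes, all but C1qa. Capitals mark matches to 3 motifs of factors known from myeloid genes, searched on both strands of the 250 bases before each start: GAGGAAG for PU.1, TTGCNNAA for C/EBP and, for IRF factors, 2 copies of GAAA with 2 free bases between them. The stretch of C1qc stops at 99 bases because an annotated transcript begins beyond the RefSeq start.
C1qb, chr4:136886201-136886450, minus strand: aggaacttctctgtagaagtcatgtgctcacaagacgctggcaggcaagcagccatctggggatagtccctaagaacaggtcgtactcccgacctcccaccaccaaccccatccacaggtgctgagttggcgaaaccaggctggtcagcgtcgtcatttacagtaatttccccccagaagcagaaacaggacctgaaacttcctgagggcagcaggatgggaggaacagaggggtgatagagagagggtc
C1qc, chr4:136893066-136893164, minus strand: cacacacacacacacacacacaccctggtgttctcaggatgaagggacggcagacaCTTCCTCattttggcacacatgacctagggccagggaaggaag
C3, chr17:57228137-57228386, minus strand: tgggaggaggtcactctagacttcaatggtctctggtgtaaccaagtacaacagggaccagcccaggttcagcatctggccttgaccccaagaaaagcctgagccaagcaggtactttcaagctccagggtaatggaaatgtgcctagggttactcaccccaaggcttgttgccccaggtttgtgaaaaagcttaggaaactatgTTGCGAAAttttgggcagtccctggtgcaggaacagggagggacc

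The PU.1 letters were found in C1qc, on the strand opposite to the gene, 194 to 188 bases before the start, and the C/EBP letters were found in C3, 45 to 38 bases before the start. None of the 3 motifs was found in the windows of C1qb, Cfp, C3ar1 and C5ar1. Of the 250 bases searched for C5ar1, only 48 lie outside annotated transcripts. Among 32851 mouse promoter windows of the same length, 10.6% held the PU.1 letters, 9.56% the C/EBP letters and 2.98% the IRF letters. Such a match is a description of the sequence, and no binding was measured.

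Values below are log2(n + 1) as deposited, where n is a value per gene symbol derived from the counts that kallisto estimated. The totals of n given further on are far below the sequencing depth stated in the study's methods, so n cannot be read as a number of reads. Since a rescaling of n is not stated and a correction for transcript length is not either, levels were compared between libraries and not between genes. All 7 genes were higher in every tumor library than in every spleen library, whichever genotype the mice had. In a limma fit to the 13897 genes tested, all 7 passed a Benjamini-Hochberg adjusted p of 0.05 as higher in tumor, where 43.1% of all genes tested were also called higher and 35.9% were called lower. C5ar1 entered this fit only through its tumor values, so that it is counted here and below as a description. All libraries of one tissue stood above all of the other for 7 of 7 genes, as they did, in the same direction, for 35.2% of all genes tested. The median difference of the 7 genes was 5.23 on the log2 scale, against 0.08 over all genes, and ranked by their rise the 7 lay between positions 21 (C5ar1) and 434 (Cfp) of 13897. The test thus called most of the genes in the table, and it is the size of the differences, rather than their calls, that stood apart from the median gene. The 7 genes were chosen with earlier results of these data known, so this size is a description and not a test. The other 30 complement genes tested, described further on, had a median difference of 0.81.

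**Figure D1:**
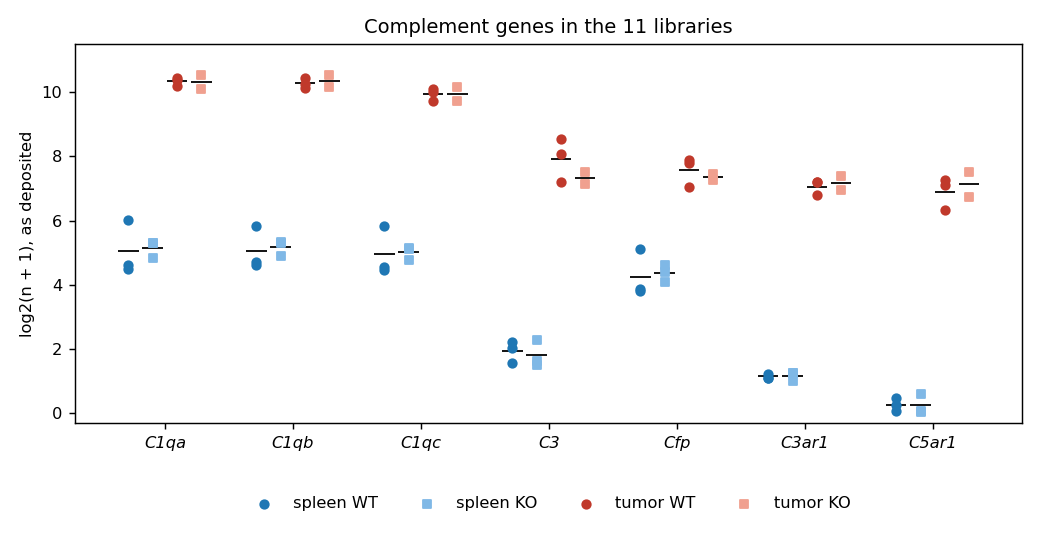
Level of each of the 7 genes, as log2(n + 1), in each of the 11 libraries; circles are WT and squares KO libraries, blue spleen and red tumor, and each bar is the mean of its group. For every gene the 5 tumor libraries lie above the 6 spleen libraries, with the narrowest gap, 1.95, for Cfp.

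The C1q chains, which together form the starter molecule of the classical pathway, were read above the floor of the table in both tissues. In spleen, C1qa was 6.03, 4.63 and 4.50 in WT replicates 1 to 3 and 4.85, 5.31 and 5.29 in KO replicates 1 to 3. In tumor, C1qa was 10.18, 10.37 and 10.45 in WT and 10.10 and 10.55 in KO. Its lowest tumor library thus stood 4.07 above its highest spleen library, and its difference was 5.23 ± 0.23 (SE, n = 5 tumor and 6 spleen libraries; adjusted p = 4.98e-10, limma). Taken back to n, the mean went from 35.7 in spleen to 1300 in tumor, a ratio of 36.3.

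C1qb, the second chain, read 5.83, 4.61 and 4.71 in WT spleen and 4.90, 5.32 and 5.35 in KO spleen. Its tumor libraries read 10.12, 10.25 and 10.44 in WT and 10.15 and 10.52 in KO, with no overlap and a difference of 5.17 ± 0.19 (SE; adjusted p = 1.29e-10, limma). C1qc, the third chain, behaved alike in its overall pattern. It read 5.83, 4.56 and 4.48 in WT spleen and 4.79, 5.13 and 5.15 in KO spleen. In tumor it read 9.74, 10.0 and 10.1 in WT and 9.72 and 10.15 in KO, a difference of 4.95 ± 0.2 (SE; adjusted p = 3.12e-10, limma). For all 3 chains spleen WT 1 was the highest spleen library and tumor KO 2 the highest tumor library.

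C3, the component on which all pathways converge, was low in spleen and high in tumor. Its spleen values were 2.03, 1.56 and 2.22 in WT and 1.51, 2.29 and 1.64 in KO. Its tumor values were 7.2, 8.54 and 8.06 in WT and 7.50 and 7.14 in KO, the widest spread of the 7 genes among tumor libraries (SD 0.6, n = 5). The difference was 5.81 ± 0.25 (SE; adjusted p = 4.32e-10, limma), and the mean n went from 2.76 to 221.

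Cfp, which encodes the alternative pathway's stabilizer properdin, had the smallest difference. Its spleen values were 5.11, 3.87 and 3.8 in WT and 4.08, 4.63 and 4.39 in KO. Its tumor values were 7.06, 7.88 and 7.79 in WT and 7.27 and 7.46 in KO, and the difference was 3.17 ± 0.23 (SE; adjusted p = 4.22e-08, limma). In n this was a mean of 20 in spleen and 183 in tumor, a ratio of 9.15, and the lowest tumor library (WT 1) held 3.94 times the n of the highest spleen library (WT 1).

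The anaphylatoxin receptor genes were close to the floor of the table in spleen. C3ar1, which encodes the receptor of the C3 fragment C3a, read 1.24, 1.11 and 1.1 in WT spleen and 1.02, 1.26 and 1.26 in KO spleen. In tumor it read 6.79, 7.19 and 7.19 in WT and 6.96 and 7.39 in KO, a difference of 5.94 ± 0.1 (SE; adjusted p = 5.31e-13, limma). It had the tightest spread of the 7 genes in spleen, with an SD of 0.1 (n = 6).

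C5ar1, which encodes a receptor of the C5 fragment C5a, read 0.25, 0.06 and 0.48 in WT spleen and 0.09, 0.62 and 0.05 in KO spleen. In tumor it read 6.33, 7.28 and 7.11 in WT and 6.73 and 7.53 in KO. The fitted difference was 6.74 ± 0.2 (SE, limma). A spleen mean of 0.26 is under the filter of 0.5, so that this gene entered the test only through its tumor values, and no p-value is given. The size of its difference depends on the value added before the logarithm, from 4.66 with 5 added to 8.95 with 0.1 added. No fold change is given for this gene. On the deposited scale, differences of C3 and C3ar1 are also understated, with 4.77 and 4.5 when 5 was added and 6.23 and 6.67 when 0.1 was added.

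An exact two-sided permutation test was run over the 462 splits of 6 spleen and 5 tumor libraries. It gave p = 0.00433 (exact permutation), the smallest value it can give, for each of the 7 genes except C5ar1. For C5ar1 no p-value of this test is given, because the gene passed the filter only through its tumor values. Total n was 712832 to 844331 in the spleen libraries and 1103159 to 1304548 in the tumor libraries, and the median difference of all genes, 0.08 as deposited, became -0.16 when the libraries were quantile normalized, -0.14 when their medians were centred and -0.44 when their totals were set equal. Relative to the deposited median, the differences of the 7 genes ran from 3.09 (Cfp) to 6.66 (C5ar1). Among the genes called, 54.5% were higher in tumor as deposited, against 42.1%, 43.4% and 29.6% in the same 3 settings, while all 7 complement genes were called higher in each of them.

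Since the cells were sorted as Tregs, and a purity of the sort is not given in the sources used here, markers of other cell types were read in the same libraries. Of 15 macrophage markers, 14 were called higher in tumor, with a median difference of 4.73, and their summed n was 241 to 427 in the spleen libraries and 9940 to 15400 in the tumor libraries. The 1 marker not called was Cd163 (0.79, adjusted p = 0.0853, limma). The macrophage genes Adgre1, Csf1r, Cd68 and Lyz2 had mean levels of 3.49, 4.92, 3.98 and 4.75 in spleen and 7.5, 8.05, 8.71 and 12.35 in tumor. Over the whole list the spleen means ran from 0.59 (Trem2) and 1.02 (Fcgr1) to 6.9 (Ctss). The 5 fibroblast markers with values summed to 2.49 to 3.41 in spleen and 458 to 982 in tumor (4 of 5 called higher), with Col3a1 and Pdgfrb under 0.5 in every spleen library. The sort and lineage genes went the other way or moved less, with Foxp3 at 6.35 in spleen and 5.5 in tumor (-0.85, adjusted p = 0.00357, limma), Cd3e lower by 0.62, Cd4 lower by 0.42, Il2ra not called (-0.27, adjusted p = 0.123) and Tnfrsf18, the gene of GITR, higher by 1.08. By genotype, mean Foxp3 went from 6.4 in spleen to 5.17 in tumor in WT, and from 6.29 to 6.0 in KO. The interaction of tissue and genotype, given below, did not call Foxp3. Il2ra was called lower when the libraries were quantile normalized (-0.93), median centred (-0.49) or set to equal totals (-0.89), and without tumor KO 1 (-0.4). In bulk RNA, fewer cells of a type and less RNA per cell cannot be told apart. The part that RNA of macrophages or fibroblasts had in the levels of the complement genes was not tested.

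Of the remaining lists, 2 of 3 neutrophil markers with values were called higher and 1 lower, with a summed n of 15.3 to 23.3 in spleen and 20.2 to 43.8 in tumor. The dendritic cell list had 4 of 5 genes called higher (6.05 to 10.4 against 13.7 to 24.1), the CD8 T and NK cell list 5 of 8 higher and 1 lower (23.7 to 53.4 against 202 to 489), the B cell list 1 of 6 higher and 4 lower (13.1 to 53.0 against 7.17 to 18.7), the erythroid and platelet list 1 of 8 higher and 7 lower (154 to 1170 against 273 to 626), the tumor epithelial list 1 of 2 tested genes higher (2.69 to 4.11 against 13.4 to 24.2) and the T cell and Treg list 2 of 9 higher and 5 lower (1540 to 1740 against 1230 to 1820). Pf4 was the 1 gene called higher in the erythroid and platelet list (6.34), with n of 2.92 to 5.52 in spleen and 227 to 607 in tumor. The other 7 of that list were lower, and Hbb-bs fell most, by 3.81, from a mean n of 122 in spleen to 9.08 in tumor. The median difference was 4.73 for the macrophage list and 1.37 for the neutrophil list, of which only 3 of 8 genes have values. The complement genes are set below against the macrophage list only.

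Set against the median of the 15 macrophage markers in the same library, the complement genes did not move as 1 block. Neither did the markers, whose own tissue differences ran from 0.79 (Cd163) to 8.19 (Cd14). Those of the complement genes, from 3.17 (Cfp) to 6.74 (C5ar1), lay within that range. A shift against the median is therefore not a shift against each marker. C1qa stood 1.7 ± 0.19 (SD of 6 libraries) above that median in spleen and 2.5 ± 0.19 (SD of 5) above it in tumor, differing by 0.798. C1qb went from 1.72 ± 0.07 to 2.46 ± 0.19 and C1qc from 1.59 ± 0.15 to 2.11 ± 0.16, differences of 0.743 and 0.52. With 5 added before the logarithm the 3 differences were 1.08, 1.03 and 0.8.

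For the receptor genes the size of the shift depended on the value added before the logarithm, so that it cannot be ranked against that of C1q. C3ar1 went from -2.23 ± 0.36 to -0.73 ± 0.12, a difference of 1.507 that was 0.52 with 5 added and 2.11 with 0.1 added. C5ar1 went from -3.14 ± 0.46 to -0.83 ± 0.22, a difference of 2.307 that was 0.68 and 4.39 in these settings, and with its spleen values at the floor it is given as a description. C3 went from -1.52 ± 0.45 to -0.14 ± 0.5 (1.381), and here tumor and spleen libraries overlapped. Cfp went the other way, from 0.92 ± 0.16 above the macrophage median in spleen to 0.34 below it in tumor (-0.34 ± 0.16), a difference of -1.257. The exact two-sided permutation test, unadjusted over 7 comparisons, gave p = 0.00866 for C3 and p = 0.00433 for the C1q chains, C3ar1 and Cfp. With the mean of the list in place of its median, the difference for C1qc was 0.22 (exact permutation p = 0.0823).

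**Figure D2:**
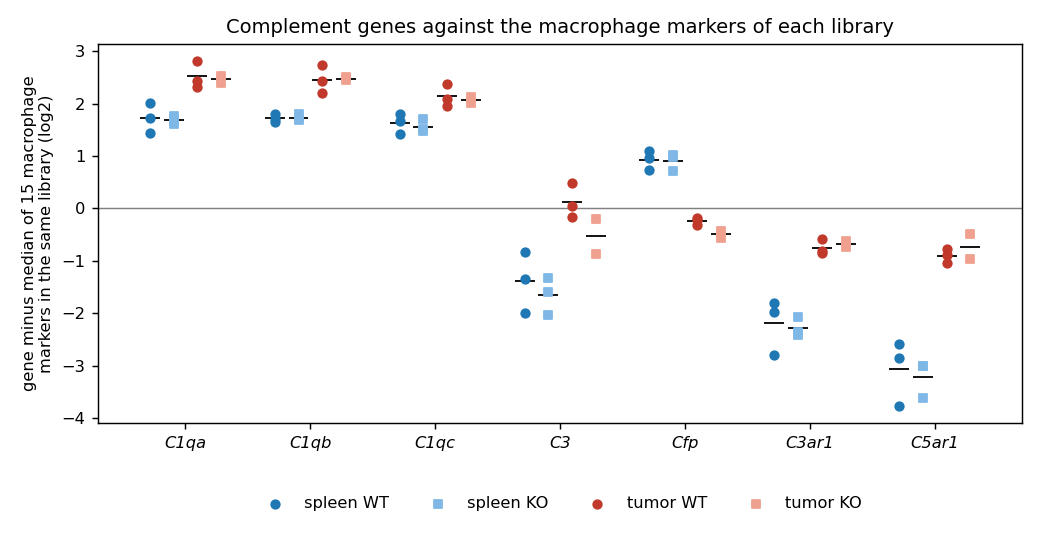
Each gene minus the median of 15 macrophage markers of the same library (log2 units, 0 marks the median), with circles for WT, squares for KO, blue for spleen, red for tumor and bars for group means. The C1q chains, C3 and the receptor genes sit higher in tumor and Cfp sits lower; only C3 has libraries of both tissues in the same range.

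Differences between 2 complement genes of the same library, in which a factor common to the library largely cancels, were compared for 6 pairs. C1qa minus C1qb was -0.02 ± 0.13 (SD) in spleen and 0.04 ± 0.07 in tumor, with overlapping libraries (exact permutation p = 0.424). C1qc lagged behind the other 2 chains, since C1qa minus C1qc was 0.11 ± 0.07 in spleen and 0.39 ± 0.04 in tumor, and C1qb minus C1qc was 0.13 ± 0.09 and 0.35 ± 0.07, neither with overlap between tissues (exact permutation p = 0.00433 for each). The shift is small, 0.278 and 0.223 log2 units.

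Cfp minus C3 turned from 2.44 ± 0.51 in spleen to -0.2 ± 0.35 in tumor, a difference of -2.638 with no overlap (exact permutation p = 0.00433). C3ar1 minus C3, a receptor gene set against the gene of its ligand's precursor, was -0.71 ± 0.32 in spleen and -0.59 ± 0.59 in tumor, and the tissues overlapped (exact permutation p = 0.667). C5ar1 minus C3ar1 was -0.91 ± 0.23 in spleen and -0.1 ± 0.25 in tumor, a difference of 0.801 that was 0.16 with 5 added (exact permutation p = 0.156), and the spleen values of C5ar1 are at the floor. The p-values are unadjusted, and each pair was compared between tissues rather than between genes.

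Within a tissue the genes varied in different ways from library to library. In spleen, WT 1 lay 0.93, 0.71, 0.84 and 0.80 above the spleen mean for C1qa, C1qb, C1qc and Cfp, and the macrophage median of that library was also the highest in spleen (4.02, 0.62 above the mean). WT 2 and WT 3 were the lowest for the same 4 genes, and their macrophage medians (2.91 and 3.06) were the lowest as well. Without spleen WT 1 the tissue differences of these genes were 5.42, 5.32, 5.12 and 3.33, all called. C3 and C5ar1 were instead highest in spleen KO 2, followed by WT 3 and WT 1.

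In tumor, WT 1 was the lowest library for C3ar1, C5ar1 and Cfp and had the lowest macrophage median (7.37), while KO 2 was the highest for the C1q chains, C3ar1 and C5ar1. C3 followed another order, with WT 2 highest, 0.86 above the tumor mean, and KO 2 lowest, 0.55 under it. The fibroblast median was also highest in WT 2, at 7.2, against 5.55 to 6.52 in the other 4 tumor libraries. So was the macrophage median, at 8.05, though close to KO 2 (8.02) and WT 3 (8.01). Cfp was highest in WT 2 as well (7.88). Without tumor WT 2 the difference of C3 was 5.60. Whether fibroblast or macrophage RNA had a part in the level of C3 was not tested.

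**Figure D3:**
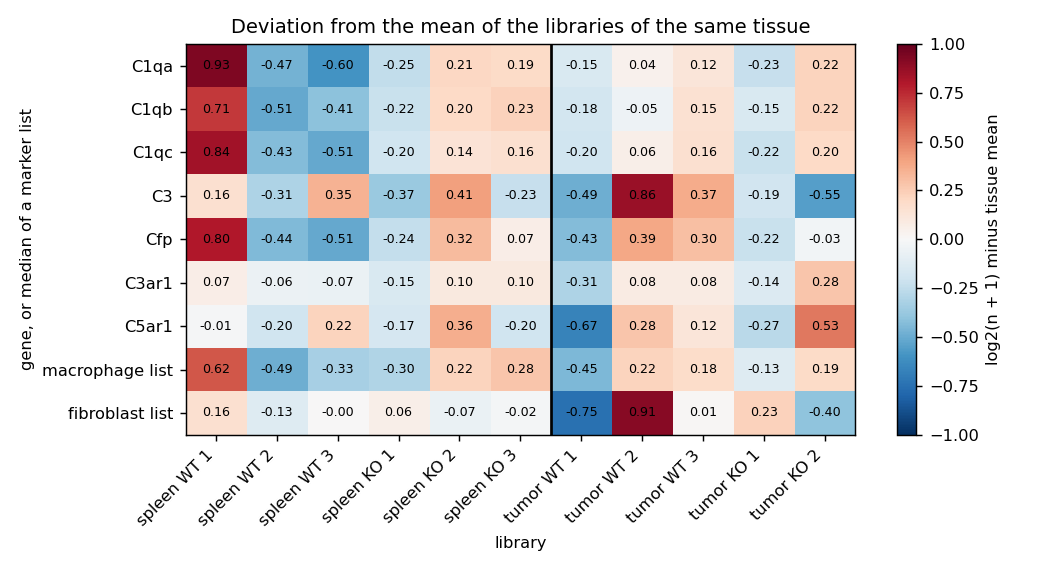
Deviation of each library (columns) from the mean of its tissue, in log2 units, for the 7 genes and for the medians of the macrophage and fibroblast lists (rows); red is above and blue below the mean, and the line divides spleen from tumor. In spleen the C1q rows and Cfp are reddest in WT 1 like the macrophage row. In tumor the C3 row is reddest in WT 2 like the fibroblast row, and so, less strongly, are the Cfp (0.39) and macrophage (0.22) rows.

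Likeness of whole profiles was measured as the root mean square difference of centred log2 values over the 11 libraries, which is mostly set by the size of the tissue difference and is given as a description. C1qa and C1qb were the most alike of the 7 genes (0.101), followed by C1qb and C1qc (0.133) and C1qa and C1qc (0.149). The nearest pair outside the C1q chains was C3 and C3ar1 (0.42), and the farthest was C5ar1 and Cfp (1.82). Among all genes tested, the mean of the C1q chains was most like Apoe (0.167), Lgmn (0.223), Fcgr1 (0.242), Cd68 (0.265) and Anxa3 (0.269), of which Apoe, Fcgr1 and Cd68 are on the macrophage list.

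C3 was most like Folr2 (0.245), Fn1 (0.259) and Bst1 (0.328), and C3ar1 was most like Mmp12 (0.168), Mmp14 (0.223) and Cxcl9 (0.262). C5ar1 was most like Emp1 (0.196), Cdkn1a (0.228) and Trem2 (0.245). Cfp was most like Soga1 (0.181), Sash1 (0.188) and Csf1r (0.192). Each gene outside the C1q cluster thus had its own nearest profiles, and no other complement gene was among the 3 nearest.

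The nearest tested genes on each side of the complement genes, the 7 themselves left out, differed between the tissues by -0.96 to 1.52, less than any of the 7. Genes that were not tested were passed over and may lie closer. The C1q cluster lies between Ephb2, 44.1 kb from C1qb, which was higher by 1.52 (adjusted p = 9.72e-06, limma), and Zbtb40, 80.9 kb from C1qa, which was lower by 0.96. Next to C3, Tnfsf14 was lower by 0.36 and Gpr108 higher by 0.75, and next to C3ar1, Foxj2 was not called (0.10, adjusted p = 0.141) and Necap1 was higher by 1.21. C5ar1 lies 2.59 kb from C5ar2, which was higher by 1.42, with Inafm1 on the other side lower by 0.83. Both neighbours of Cfp, Syn1 (0.10, adjusted p = 0.403) and Elk1 (0.05, adjusted p = 0.772), were not called.

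The design also sets KO against WT mice, which differ in the Cd177 deletion and the Cre-YFP allele together. In WT mice all 7 genes were called higher in tumor, where 39.2% of all genes were called higher, with differences from 3.31 (Cfp) to 6.65 (C5ar1). In KO mice all 7 were called as well, against 36.2% of all genes, with differences from 3.0 (Cfp) to 6.88 (C5ar1). For each gene these differences were at most 0.49 apart, and the interaction of tissue and genotype, which tests their difference, called none of the 7 (0% of all genes, although 383 had an unadjusted limma p under 0.05). The interaction term ran from -0.49 for C3 (95% interval -1.57 to 0.59) to 0.23 for C5ar1 (-0.71 to 1.17).

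**Figure D4:**
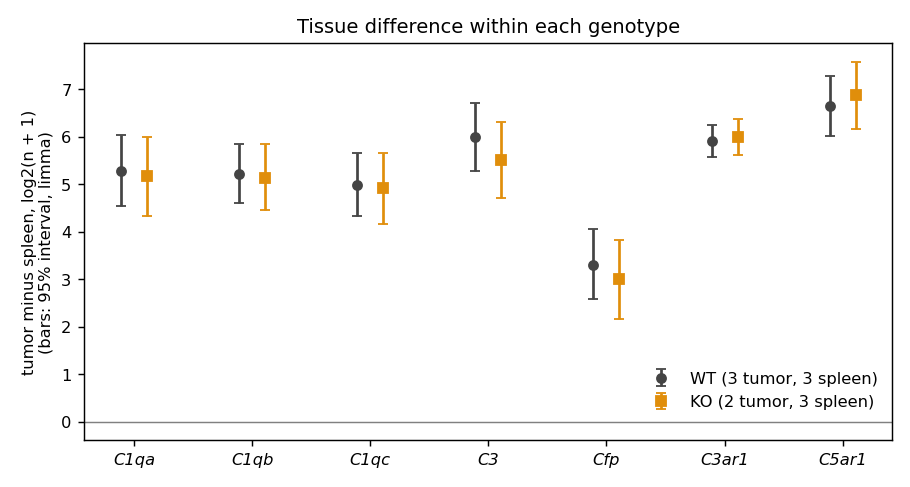
Tumor minus spleen difference of each gene in log2 units within WT (circles, 3 tumor and 3 spleen libraries) and within KO mice (squares, 2 tumor and 3 spleen libraries); bars are 95% intervals from limma. The intervals of the genotypes overlap for each gene, and all lie above 0.

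KO libraries were also set against WT libraries within each tissue. In spleen, differences ran from -0.13 for C3 (95% interval -0.84 to 0.59) to 0.14 for C1qb (-0.48 to 0.76), and no gene of the 7 was called, nor was any of all genes tested (0%, although 281 had an unadjusted limma p under 0.05). In tumor, the largest difference was that of C3, lower in KO by 0.61 (SE 0.36, 95% interval -1.42 to 0.19), and C5ar1 was at the other end with 0.22 (-0.48 to 0.93). None of the 7 was called in tumor (lowest adjusted p of 0.9997, limma), where 0.0072% of all genes were, 1 gene out of 13897, although 634 had an unadjusted limma p under 0.05. The intervals of the 7 genes in tumor reached from -1.42 to 0.93. For each of these genes every tumor library lay above every spleen library, whereas no difference between WT and KO within a tissue was called. With so few libraries in each group, a missing call does not show that the genotypes are equal.

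Around these genes the other parts of complement were read from a list of 52 genes, of which 32 have values and 30 were tested. In tumor 19 were called higher and 6 lower, with a median difference of 0.81 against 0.08 for all genes, of which 43.1% were called higher and 35.9% lower. With equal library totals these counts were 14 and 9, against 3286 and 7819 of all 13897 genes, and in both genotype comparisons and the interaction none of the 30 was called. The members of a pathway differed widely, and the classes are given in turn.

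Of the other classical pathway genes with values, 3 of 4 were called higher. C4b, the partner that C1s cleaves, had a mean of 0.62 ± 0.08 (SD) over the spleen libraries and 5.95 ± 0.32 over those of tumor, and differed by 5.33 (adjusted p = 9.71e-12, limma). The C1 protease genes C1s1 and C1ra were higher by 4.91 and 4.36, from spleen means of 0.16 and 0.60. C1s1 was under 0.5 in every spleen library and entered the test only through tumor, and its difference was 2.88 with 5 added and 7.32 with 0.1 added. C2, which supplies the protease of the classical C3 convertase, was not called (-0.38, adjusted p = 0.0953) as deposited, and was called lower with equal totals (-0.91, adjusted p = 0.000839), quantile normalization (-0.62, adjusted p = 0.00964) and centred medians (-0.6, adjusted p = 0.0118), and without tumor WT 2 or tumor KO 1 (-0.48 for each).

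The lectin pathway gave no call on the deposited scale, with Fcna, a ficolin, at 0.33 (adjusted p = 0.284) and Colec12, a scavenger receptor with a collectin domain, at 0.0012 (adjusted p = 0.993), and the remaining 7 of its 9 listed genes were not analysed here. Colec12 was called lower with equal totals (-0.52, adjusted p = 0.0043). In the alternative pathway Cfb, the gene of factor B, rose from 1.77 ± 0.40 to 6.23 ± 0.23, a difference of 4.46 (adjusted p = 2.85e-10, limma), beside the smaller difference of Cfp. The terminal components stayed low in both tissues. Hc, which encodes C5, the precursor of the ligand of C5ar1, read 0.50 ± 0.32 in spleen and 1.13 ± 0.47 in tumor (0.63, adjusted p = 0.0166), a call lost with equal totals (0.38, adjusted p = 0.131) and with centred medians (0.4, adjusted p = 0.0895). C8g was lower by 0.66 and C6 was not called (0.24, adjusted p = 0.319).

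Of 4 soluble regulators tested, 2 were called higher and 1 lower, and of 5 membrane regulators 2 were called higher and 3 lower. Serping1, which encodes the C1 inhibitor, was higher by 4.36 but lay under 0.5 in every spleen library, so that it was tested only through its tumor values and moved from 2.44 with 5 added to 6.51 with 0.1 added. C4bp, the gene of the C4b-binding protein, was lower by 0.71, and Clu, the gene of clusterin, was not called (-0.20, adjusted p = 0.573). Among membrane regulators, which protect cells from their own complement, Cd59b fell by 1.98, Cd46 by 1.42 and Cd55 by 1.15, whereas Cd59a was higher by 0.56 as deposited (adjusted p = 0.00164) and not called with equal totals (0.27, adjusted p = 0.0541). Cr1l, which encodes the rodent regulator Crry, was higher by 0.21 as deposited (adjusted p = 0.024) but lower with equal totals (-0.41, adjusted p = 0.00296) and quantile normalization (-0.19, adjusted p = 0.0334), and it was not called without spleen WT 1 (0.18), WT 2 (0.19) or WT 3 (0.17), tumor WT 2 (0.18) or tumor KO 1 (0.18).

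Of 11 other receptor genes, 10 were called higher and 1 lower, beside the 43.1% and 35.9% of all genes. Itgam, the alpha chain of complement receptor 3, went from 1.26 ± 0.78 to 7.68 ± 0.26 (6.43, adjusted p = 1.32e-09, limma), and Cd93, first described as a C1q receptor, from 1.26 ± 0.20 to 5.88 ± 0.34 (4.62). Cr2, the complement receptor of B cells, was lower by 1.20, beside a B cell list in which 4 of 6 genes were lower. C5ar2, which encodes the second C5a receptor, rose by 1.42. Itgb2, the beta chain that pairs with Itgam, was higher by 0.85 as deposited and at -0.016 after quantile normalization.

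**Figure D5:**
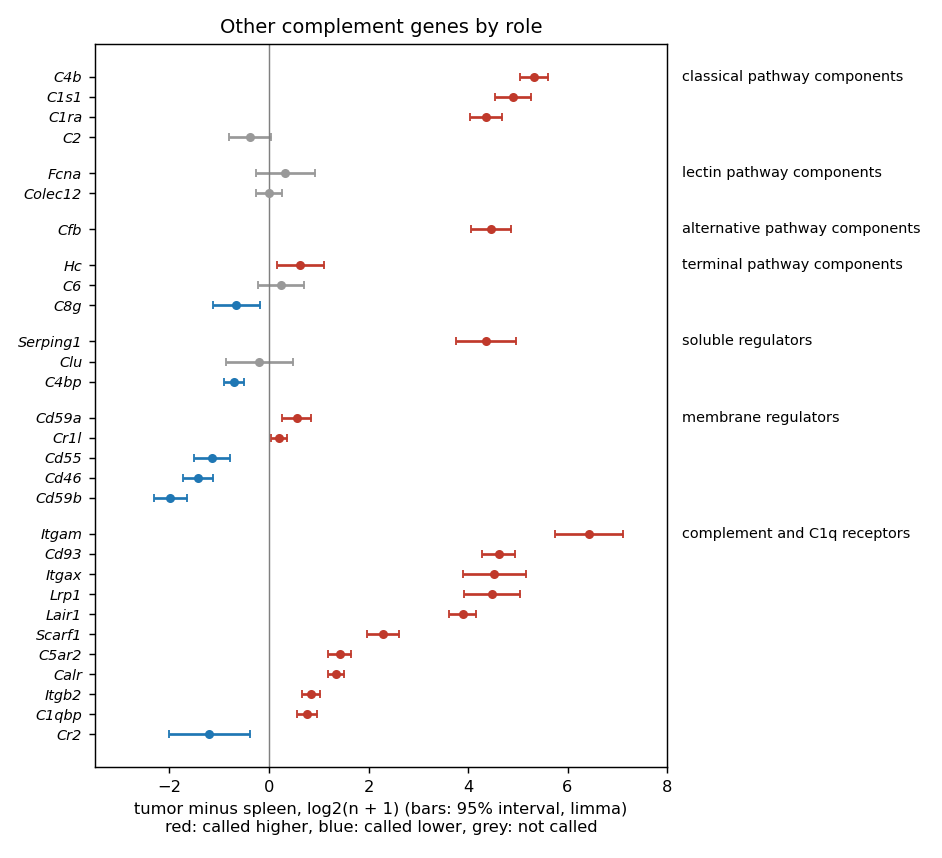
Tumor minus spleen difference of other complement genes tested, grouped by role, in log2 units with 95% intervals from limma; red is called higher, blue called lower, grey not called. C4b, C1s1, C1ra, Cfb, Serping1 and several receptors lie above 4, terminal components lie near 0, and 3 of 5 membrane regulators lie below 0.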

How the data were processed

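The authors sorted live CD4+ GITR+ CD25+ cells from dissociated MC38 tumors and from spleens, depleted ribosomal RNA, sequenced single-end reads, estimated counts with kallisto on mm10 (version not given in the sources used here), aggregated them by gene symbol in sleuth 0.30.0 and deposited log2(n + 1) values. The totals of n lie far below the sequencing depth given in the methods and a rescaling is not stated, so the reads behind a value are not known, no counting interval was given, and precision rests on the spread between libraries.

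The 7 genes and all gene lists were chosen with earlier results of these data known. The deposited log2 values were used without further scaling. Genes with a mean of at least 0.5 over 11 libraries were kept (13897 of 14604). limma 3.58.1 in R 4.3.3 (lmFit, eBayes with trend) compared 5 tumor with 6 spleen libraries, and a mean per tissue and genotype gave the remaining contrasts. A gene was called at an adjusted p (Benjamini-Hochberg) below 0.05. Differences within libraries, and single genes, were put to an exact two-sided permutation test in scipy 1.17.1. The fit was tested on simulated data. Alternatives changed scaling, the added value (0.1 or 5), filter, variance model, covariates, replicate block and the libraries used. The genes named were the 7 members, markers, nearest profiles and neighbours, and, for each class of complement genes, the largest 2 rises and 2 falls called, or all genes where at most 4 were tested. Itgb2, Itgax and Cd55 fall outside this rule and were named after their values were seen. 1 gene counted among the complement genes is not reported here by name.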

Additional observations from a re-analysis of the deposited data

Results flagged for a closer look

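One value stood far from the others of its group. The median of the 5 dendritic cell markers was 1.26 in spleen KO 2, against 0.47 to 0.60 in the other 5 spleen libraries. Of the complement genes, C3 (2.29) and C5ar1 (0.62) had their highest spleen values in the same library. The same library had the highest spleen medians of the B cell list (2.98, against 1.19 to 1.94) and of the CD8 T and NK cell list (2.95), and the highest spleen values of Lyz2 (6.87), Itgam (2.66) and Itgax (2.63). Without it, the tissue differences of C3 and C5ar1 were 5.89 and 6.81. Chance would flag about 1 in 20 groups, 2.9 of the 58 tested here. What sets this library apart was not tested.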

How the results depend on the processing

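The count of the 7 genes called was the same under every alternative that was run: 7 for tumor against spleen, in all mice and within each genotype, and 0 for the interaction and both genotype comparisons. Their tissue differences kept direction and call in all 448 fits, and with genotypes pooled they ranged from 4.61 to 5.42 for C1qa, 4.55 to 5.32 for C1qb, 4.33 to 5.12 for C1qc, 4.77 to 6.23 for C3, 4.5 to 6.67 for C3ar1, 4.66 to 8.95 for C5ar1 and 2.56 to 3.33 for Cfp. C5ar1 is in these counts although it passed the main filter only through its tumor values. The study took the spleens from the tumor-bearing mice, but the labels do not say that a replicate number marks a mouse, so the numbers were not taken as pairs. Deviations of same-numbered spleen and tumor libraries correlated at -0.128 to 0.0375, against -0.083 to 0.124 for differently numbered ones. Since each group holds only 2 or 3 libraries, these correlations cannot decide whether the numbers mark pairs. With a replicate block, the call of Hc was lost (0.61, adjusted p = 0.0577), all 7 genes were called between the tissues, and 0 genes of the table were called between genotypes in tumor.

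Over all genes, the interaction called 1 gene with 0.1 added and 0 to 1 when a library was left out. KO against WT in tumor called 0 genes after quantile normalization, after median centring, with 5 added, without the filter, with the block and with only the groups compared, and 0 to 2 when a library was left out (2 without tumor KO 1). Uncalled differences that changed sign with a library left out were C5ar1 in the interaction (-0.17 to 0.63) and between genotypes in tumor (-0.18 to 0.62), C3 and C1qb between genotypes in spleen (-0.36 to 0.025 and -0.08 to 0.53), C3ar1 minus C3 (-0.081 to 0.32, and -0.27 with 5 added), Clu (-0.42 to 0.014) and Colec12 (-0.1 to 0.076). With equal totals, Fcna was -0.28, C6 -0.26, Colec12 -0.52 and Cr1l -0.41. After quantile normalization Colec12 was -0.24, Cr1l -0.19 and Itgb2 -0.016, after median centring Colec12 was -0.22 and Cr1l -0.02, and with 0.1 added Colec12 was -0.0026. The cause was not tested. Of the 30 other complement genes, 20 kept direction and call in every fit. How many reads stand behind a value of n is not known, which bears most on the low spleen values of C3, C3ar1 and C5ar1.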
